A study of Mus musculus with 9 samples.

Results

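Gluconeogenesis and the first step of fructose breakdown were followed here through 8 genes of the mouse kidney: Pck1, G6pc, Fbp1, Pcx, Khk, Slc37a4, Gk and Glud1. They were selected by gene symbol, and all 8 were found among the 55385 genes of the expression table. The kidneys came from male C57BL/6J mice in 3 groups of 3 libraries. The mice were 8 to 10 weeks old when the model was set up, and the kidneys were taken at the end of the study. Control mice were untreated. HN (hyperuricemic nephropathy) mice were fed adenine (0.16 g/kg) with potassium oxonate (2.4 g/kg), a purine load with an inhibitor of urate breakdown, every other day for 4 weeks. PEC mice had the same feeding and were given pectolinarigenin, a plant flavonoid, by mouth at 25 mg/kg daily over those 4 weeks. No group received pectolinarigenin without the adenine and oxonate feeding. The study had 8 mice per group, and 3 libraries per group were sequenced. The labels give the strain as C57BL/6, and the Control titles carry the same HN prefix as the other libraries although their disease state is control. The libraries are named here by group and replicate number (Control 2, 4 and 5, HN 4, 8 and 12, PEC 1, 2 and 3). The labels do not say whether each library came from 1 animal, so the p-values measure the spread between these libraries. Total counts ranged from 57714111 to 81069646 per library, and the lowest count of any of the 8 genes in any library was 4201.

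The kidney cortex is, beside the liver, a site of glucose production, and the enzymes for it sit in the proximal tubule. Lactate, glutamine and glycerol enter the pathway at different points: glutamine carbon leaves the mitochondrion after glutamate dehydrogenase (Glud1), lactate carbon passes through pyruvate carboxylase (Pcx), and glycerol is phosphorylated by glycerol kinase (Gk). Phosphoenolpyruvate carboxykinase (Pck1), fructose bisphosphatase (Fbp1) and glucose-6-phosphatase (G6pc, supplied by the glucose-6-phosphate transporter Slc37a4) bypass the irreversible steps of glycolysis, and ketohexokinase (Khk) feeds fructose into the same pool of triose phosphates.

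The labelled tissue was checked against 15 proximal tubule markers, none of which was at 0 in any library. Their summed FPKM (fragments counted on a gene, scaled by transcript length and library size) was 4173, 4439 and 4620.2 in Control 2, 4 and 5, 1367, 1362 and 1456 in HN 4, 8 and 12, and 2801, 3168 and 2135 in PEC 1, 2 and 3. The most abundant was Slc27a2, a fatty acid transporter and acyl-CoA synthetase, at 828 ± 36.5 FPKM in Control against 309 ± 13.2 in HN, with 613 ± 93 in PEC (SD, n = 3 each). The 3 groups did not overlap in this sum, with HN lowest and PEC between. In whole kidney tissue, fewer proximal tubule cells and less RNA per cell cannot be told apart, and the part of the markers in the values of the 8 genes was not tested. The 6 injured proximal tubule markers had a summed FPKM of 395 ± 38.2 in Control, 11203 ± 641 in HN, then 7780.4 ± 822 in PEC (SD, n = 3), most of it from Spp1. All 6 were called higher in HN than in Control in edgeR, beside 17.5% of all tested genes. Between PEC and HN 2 were called lower, beside 15.1% of all tested genes, and 4 were not called (median log2 -0.45). Macrophage markers (6 genes, Lyz2 the most abundant) summed to 50.6 ± 4.19 in Control, 1102 ± 81.3 in HN, then 450.4 ± 80.7 in PEC, and fibroblast markers (5 genes, Col3a1 the most abundant) to 25 ± 3.61, 244 ± 13.5 and 107 ± 9.11. Collecting duct markers (6 genes, Aqp2 the most abundant) summed to 408, 451 and 234 FPKM in Control 2, 4 and 5, 276, 199 and 282 in HN 4, 8 and 12, and 308, 285 and 359 in PEC 1, 2 and 3. In edgeR 5 of the 6 were called lower in HN than in Control (median log2 -1.26), beside 14.6% of all tested genes. Between PEC and HN 4 were called higher (median 0.67), beside 13.2% of all tested genes. These are the same directions as the calls of the 8 genes, but with total counts alone 2 were lower and 1 higher in HN, and 2 higher in PEC. Thick limb and distal tubule markers (5 genes, Umod the most abundant) summed to 1209.7 ± 66.8, 1563 ± 92.2 and 1357 ± 74 FPKM in Control, HN and PEC. Beside the same shares of all tested genes, 3 of these markers were called lower in HN (2 lower and 1 higher with total counts). Between PEC and HN 2 were called higher (median log2 0.0064), and 2 higher and 1 lower with total counts (median -0.19). In Control, HN and PEC the sums were 54.7 ± 0.848, 74 ± 4.93 and 72.4 ± 4.89 FPKM for 4 podocyte markers, 33.9 ± 2.21, 43.1 ± 1.18 and 38 ± 8.69 for 4 endothelial markers, and 3.61 ± 1.63, 25.7 ± 8.82 and 3.35 ± 0.889 for 5 lymphocyte markers. The 4 podocyte markers were not called in any comparison in edgeR with TMM scaling. With total counts 2 of them were called higher in HN than in Control, and 1 in PEC than in Control. The part of these lists in the values of the 8 genes was not tested either. The share of counts on mitochondrial genes was 14.2% ± 1.82 in Control, 6.19% ± 0.164 in HN, then 12.3% ± 1.77 in PEC (SD, n = 3). All calls of the 8 genes were unaltered in a fit without the mitochondrial genes.

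Library PEC 3 stood apart in fat cell markers. The summed FPKM of 6 adipocyte markers was 0.22, 0.65 and 438 in PEC 1, 2 and 3, 1.42, 0.46 and 50.1 in HN 4, 8 and 12, and 16.3, 0.32 and 0.10 in Control 2, 4 and 5. Cfd, the most abundant of them, read 320.1 FPKM in PEC 3. Fat cells also express Pck1 and Pcx, and the part of these transcripts in the values of the 8 genes was not tested. Without PEC 3 the calls of the 8 genes were unaltered in all 3 comparisons, except that Slc37a4 was then also called higher in PEC than in HN. Of 5 liver markers, Ttr was the most abundant, and the summed FPKM of the list was 122 ± 3.96 in Control, 168 ± 8.03 in HN and 217 ± 27.6 in PEC (SD, n = 3). Of the 4 that passed the filter on low counts, 1 (Alb) was called lower in HN than in Control in edgeR, beside 14.6% of all tested genes. Between PEC and HN 3 (Alb, Apoa1 and Serpina1a) were called higher, beside 13.2% of all tested genes. The medians were -1.18 and 1.79 (log2), and with total counts 1 was higher in PEC than in HN. Alb, the albumin gene, was at 1.9 ± 0.362 FPKM in Control against 0.55 ± 0.149 in HN, with 4.04 ± 1.36 in PEC. Cps1, the other marker, was the only one of the 5 listed at 0 in any library, and was at 0 in 7 of 9 and at most 0.070 FPKM. The part of liver transcripts was not tested. Of 4 adrenal cortex markers, only Star passed this filter, and their summed FPKM was at most 1.3 in any library.

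**Figure D1:**
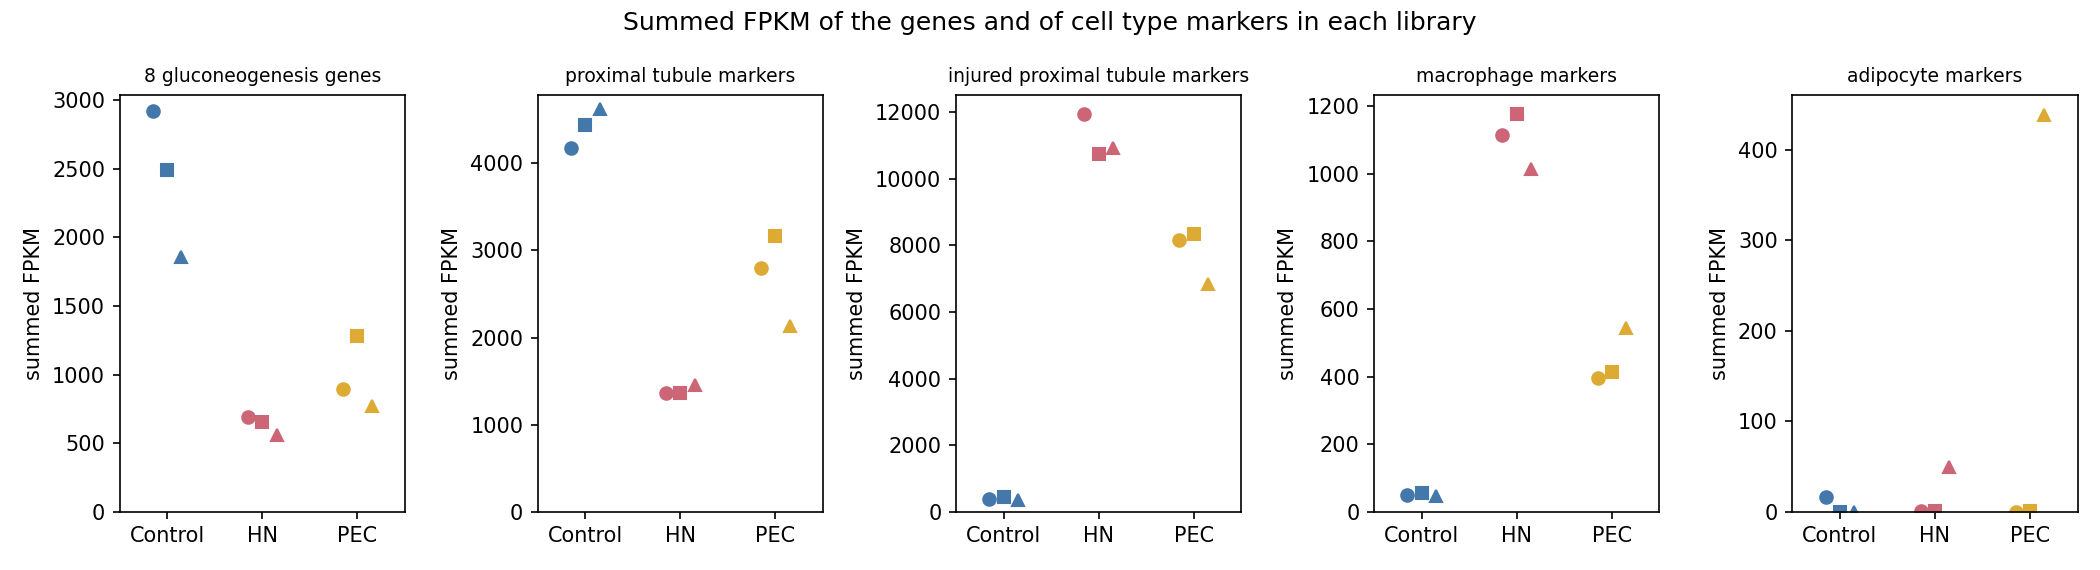
Summed FPKM of the 8 gluconeogenesis genes and of 4 marker lists, 1 point per library, by group (symbols mark the 3 libraries of a group in order of replicate number). The proximal tubule sum lies between 1362 and 1456 in HN, below every Control and PEC library, and the adipocyte sum is 438 in PEC 3.

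The DNA before 4 of the genes is shown. Pck1 and G6pc had the highest Pearson's r among pairs of the 8 genes over the 9 libraries, 0.990, only slightly above Pck1 with Pcx (0.984). Pcx and Gk hold the same E box as Khk. The sequences are from RefSeq (GRCm38.p6), are written 5′ to 3′ on the gene's strand, and end before both the RefSeq and the GENCODE M21 start. Capitals mark matches to 11 searched motifs.
Pck1 (chr2:173152823-173153047, plus strand): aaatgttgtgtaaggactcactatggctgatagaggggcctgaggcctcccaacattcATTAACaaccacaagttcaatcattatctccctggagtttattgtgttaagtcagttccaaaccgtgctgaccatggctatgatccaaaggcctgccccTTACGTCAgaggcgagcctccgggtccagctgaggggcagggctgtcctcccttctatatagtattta
G6pc (chr11:101367466-101367560, plus strand): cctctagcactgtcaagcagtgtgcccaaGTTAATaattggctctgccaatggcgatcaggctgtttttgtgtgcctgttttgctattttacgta
Pcx (chr19:4510222-4510471, plus strand): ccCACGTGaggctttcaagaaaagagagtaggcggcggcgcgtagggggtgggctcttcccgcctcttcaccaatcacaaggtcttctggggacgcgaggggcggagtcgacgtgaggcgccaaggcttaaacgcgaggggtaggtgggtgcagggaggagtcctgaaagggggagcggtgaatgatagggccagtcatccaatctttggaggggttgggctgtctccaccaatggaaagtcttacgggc
Gk (chrX:85776820-85777069, minus strand): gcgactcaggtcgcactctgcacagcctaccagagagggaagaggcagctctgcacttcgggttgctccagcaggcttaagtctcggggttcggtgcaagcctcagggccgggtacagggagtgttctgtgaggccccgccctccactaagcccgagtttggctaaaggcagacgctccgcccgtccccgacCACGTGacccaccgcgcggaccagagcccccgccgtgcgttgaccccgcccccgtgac
All 8 genes had an entry in the promoter table, and the 250 bases before each RefSeq start were searched on both strands. The cyclic AMP response element TTACGTCA was found before Pck1 alone among the 8, and 0.447% of all 32851 windows of this length hold it. Its core ACGTCA, which lies inside it, was found before Pck1 and Slc37a4 (6.47% of windows). The motif GTTAAT was found before Pck1, G6pc and Khk (6.43%), and in Pck1 it reads ATTAAC because it lies on the other strand. The E box CACGTG was found before Pcx, Khk and Gk (6.02%). AGGTCA was found before G6pc and Slc37a4 (14%), TGTTTG before G6pc (16%) and TATAAA before G6pc and Slc37a4 (12.4%). In G6pc these 3 lie outside the stretch shown. Several RefSeq starts were searched for Slc37a4, and its TATAAA match lies before the start 1502 bases past the GENCODE M21 start. No match to TGACGTCA (1.55%), TGTTTAC (3.17%), CAAAGTCCA (0.384%) or TTGCNNAA (9.56%) was found before any of the 8 genes. Fbp1 and Glud1 held no match to any of the 11 motifs. These matches describe letters in a window and were not tested for binding.

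In Control kidneys the 8 genes spanned a wide range of levels on the FPKM scale, which is per length. The order of the genes holds for the lengths behind the deposited FPKM. For Gk, count and FPKM give a length of 8575 bases, against 4340 for its longest GENCODE M21 transcript, the widest such gap of the 8, so the place of Gk depends on the length used. Pck1 was the highest at 1016 ± 310.1 FPKM (SD, n = 3), followed by Fbp1 at 524 ± 56.8, G6pc at 282 ± 105 and Khk at 192 ± 13.2. Glud1 (133 ± 39.7), Pcx (113 ± 18.2) and Gk (98.8 ± 9.47) came next, and Slc37a4 was the lowest at 65 ± 7.17. Values of G6pc and Khk overlapped across the Control libraries, as did those of Glud1 with Pcx and of Pcx with Gk. The other neighbours in the order did not overlap. Within each Control library, however, G6pc was above Khk, Glud1 above Pcx and Pcx above Gk. Differences between neighbours were not tested. In HN the order changed to Fbp1, Pck1, Glud1, Khk, G6pc, Gk, Pcx and Slc37a4, and the values overlapped only between Fbp1 and Pck1 and between G6pc and Gk. In PEC it was Pck1, Fbp1, Khk, G6pc, Glud1, Pcx, Slc37a4 and Gk, with Fbp1 above Khk and Glud1 above Pcx as the only neighbours that did not overlap.

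The libraries of a group did not vary alike for all genes. Among the Control libraries the SD was 37% of the mean for G6pc, 30.5% for Pck1 and 29.8% for Glud1, against 6.89% for Khk and 9.58% for Gk. Control 5 was the lowest Control library for all 8 genes, although its proximal tubule marker sum was the highest of the 3. PEC 2 was the highest PEC library for all 8, and also had the highest proximal tubule marker sum of the PEC libraries.

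The comparison of HN with Control asks what the adenine and oxonate feeding changed. All 8 genes were lower in HN in edgeR's quasi-likelihood test, where calls required both a 1.5-fold difference and an adjusted p no higher than 0.05 (Benjamini-Hochberg, over all 21392 genes tested). Of all tested genes, 14.6% were called lower and 17.5% higher. The median log2 fold change of the 8 genes was -2.05, beside -0.000814 for all tested genes. The proximal tubule markers had a median close to it, -1.95, with 14 of 15 called lower. The FPKM of HN lay below that of Control without overlap for all 8, as it did for 10.8% of tested genes. The fold changes are relative to TMM scaling, which centres the bulk of genes. With total counts alone, as in FPKM, the median of all tested genes was 0.56 in HN against Control, -0.21 in PEC against HN and 0.40 in PEC against Control, so ratios of FPKM differ from the fold changes by about these amounts.

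Of the 3 bypass enzymes of the cytosol and the endoplasmic reticulum, Pck1 and G6pc had the largest falls of the 8 genes in HN against Control. Fbp1 was near the median of the 8. Pck1, which turns oxaloacetate into phosphoenolpyruvate (ENSMUSG00000027513, chr2:173153048-173159273), read 1309.5, 1047 and 692 FPKM in Control 2, 4 and 5, 191, 155 and 109 in HN 4, 8 and 12, and 277, 486 and 261 in PEC 1, 2 and 3. Every HN library was below every PEC library, and every PEC library was below every Control library. Pck1 fell by 3.26 ± 0.35 on the log2 scale in HN against Control (SE), a 9.61-fold difference (edgeR, adjusted p = 1.04e-04). G6pc, which releases free glucose (ENSMUSG00000078650, chr11:101367561-101377903), read 395, 263 and 189 FPKM in Control against 57.8, 55.6 and 33.4 in HN, with 98, 118 and 62.8 in PEC. The groups were again ordered Control, PEC and HN without overlap, with HN 12 the lowest library and PEC 3 only slightly above HN 4. G6pc fell by 3.05 ± 0.36 (log2, SE) in HN (edgeR, adjusted p = 2.24e-04). Fbp1, which removes the 1-phosphate of fructose 1,6-bisphosphate (ENSMUSG00000069805, chr13:62864753-62888282), read 558, 555 and 458 FPKM in Control against 180.3, 193 and 167 in HN, with 239.6, 304 and 187 in PEC. HN and PEC were both below Control, and PEC 3 lay within the range of HN. Fbp1 fell by 2.07 ± 0.17 (log2, SE) in HN (edgeR, adjusted p = 1.33e-05).

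Slc37a4, the transporter that brings glucose 6-phosphate to G6pc (ENSMUSG00000032114, chr9:44396852-44402966), read 69.9, 68.3 and 56.7 FPKM in Control against 30.6, 26 and 24.8 in HN, with 26.7, 48.9 and 22.4 in PEC. PEC 2 was above every HN library, whereas PEC 3 was below all of them and PEC 1 lay among them. It fell by 1.79 ± 0.27 (log2, SE) in HN against Control (edgeR, adjusted p = 7.95e-04). The FPKM of G6pc was 4.28 ± 1.22 times that of Slc37a4 in Control against 1.79 ± 0.406 times in HN, with 2.96 ± 0.645 times in PEC (mean of the library ratios, SD, n = 3), and this difference between the 2 genes was not tested.

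Of the mitochondrial entry enzymes, Pcx (ENSMUSG00000024892, chr19:4510472-4621752) read 129, 118 and 93.2 FPKM in Control against 31.3, 30.8 and 32.5 in HN, with 46.5, 61.3 and 48.9 in PEC. The HN libraries lay close together and below all others, and the PEC libraries were between HN and Control without overlap. Pcx fell by 2.38 ± 0.14 (log2, SE) in HN (edgeR, adjusted p = 2.50e-06). Lrfn4 overlaps Pcx on the other strand, and its counts came to 4.81% of those of Pcx over all libraries. Glud1 (ENSMUSG00000021794, chr14:34310727-34345265) read 175, 128 and 96.2 FPKM in Control against 93.3, 93.8 and 83.9 in HN, with 68.3, 75.6 and 65.2 in PEC. Control 5 lay just above HN 8, and the PEC libraries were the lowest of all. Glud1 fell by 1.09 ± 0.18 (log2, SE) in HN against Control (edgeR, adjusted p = 9.91e-04), but this call depended on the scaling: it was -0.54 with total counts and -0.52 with limma on log2(FPKM + 1), both under the fold threshold.

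Glycerol and fructose enter in the cytosol. Gk (ENSMUSG00000025059, chrX:85701937-85776819) read 95.7, 109 and 91.3 FPKM in Control against 36, 33.6 and 35 in HN, with 7.57, 37.3 and 25.3 in PEC. The HN libraries were nearly equal, and PEC 1 stood far below PEC 2 and PEC 3. Gk fell by 2.03 ± 0.48 (log2, SE) in HN against Control (edgeR, adjusted p = 0.010). Khk (ENSMUSG00000029162, chr5:30921431-30931248), which phosphorylates fructose, read 188, 207 and 181 FPKM in Control against 68.4, 65.9 and 71.9 in HN, with 136, 154 and 99 in PEC. The groups did not overlap, and PEC 3 was the PEC library nearest to HN. Khk fell by 2.02 ± 0.15 (log2, SE) in HN (edgeR, adjusted p = 7.48e-06).

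**Figure D2:**
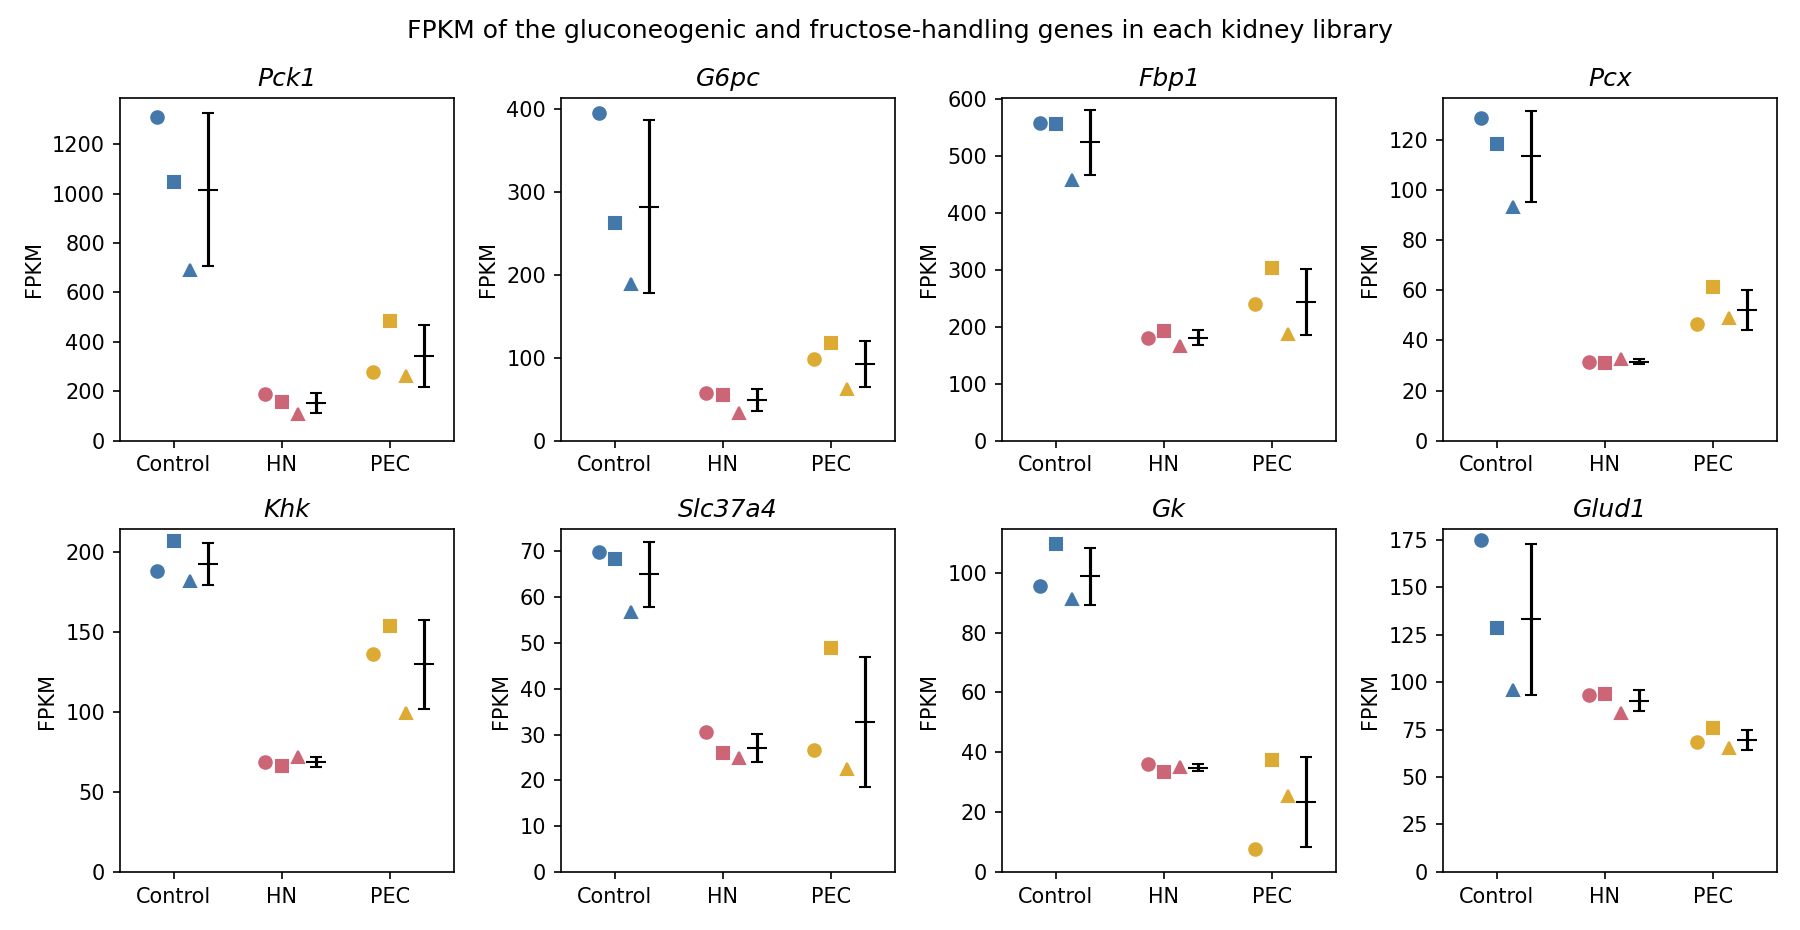
FPKM (linear axis from 0) of each of the 8 genes in every library, by group, with the group mean and SD (n = 3) as a bar beside the points. Control is highest for all 8 genes, PEC 2 is the highest PEC library in every panel, and PEC 1 is the lowest library for Gk at 7.57.

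The comparison of PEC with HN asks which of these genes differed under pectolinarigenin at equal feeding. It uses the same HN libraries as the comparison with Control, so the 2 sets of values are not independent and are given side by side only. Of the 8 genes, 5 (Pck1, G6pc, Fbp1, Pcx and Khk) were called higher in PEC and none lower in edgeR (at an unadjusted p under 0.05 with the same fold change, and in DESeq2, the count called lower was also 0), while 13.2% of all tested genes were called higher and 15.1% lower. The median log2 fold change of the 8 genes was 0.80, against -0.02 for all tested genes. The proximal tubule markers had a median of 0.98, with 11 of 15 called higher (8 with total counts). The FPKM did not overlap for 4 genes with PEC higher (Pck1, G6pc, Pcx and Khk), as for 18.0% of tested genes, and for 1 with PEC lower (Glud1), as for 38.1%.

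Khk was 2.19-fold higher in PEC than in HN (log2 1.13 ± 0.14, SE, edgeR adjusted p = 3.07e-04), and Pcx 1.92-fold (log2 0.94 ± 0.13, adjusted p = 5.13e-04). All 3 PEC libraries were above all 3 HN libraries for both. Pck1 was 2.6-fold higher (log2 1.38 ± 0.33, edgeR adjusted p = 0.0101). These 3 calls held when any 1 library was left out. G6pc was 2.2-fold higher (log2 1.14 ± 0.34, edgeR adjusted p = 0.0289), and lost its call without HN 8, HN 12, PEC 1 or PEC 2, each taken out alone, with edgeR adjusted p of 0.0626, 0.0826, 0.0762 and 0.0953 (range over 23 alternatives 0.00161 to 0.0953). Its log2 fold change ran from 0.90 to 1.37 over the same alternatives, above the 1.5-fold threshold in each. Fbp1 was 1.57-fold higher (log2 0.65 ± 0.16, edgeR adjusted p = 0.0111), close to the fold threshold. Without HN 12 its log2 fold change was 0.58 and without PEC 2 it was 0.46, both under the threshold. It was not called in 8 of 23 alternatives, which include both limma fits (0.41 at either pseudocount), total counts (0.45) and the length trend removed (0.43), and G6pc in 7, which include total counts and no filter on low counts. The count of called genes among the 8 was thus 3 in place of 5 without HN 12, and also without PEC 2 and with total counts, and 4 in both limma fits and with the length trend removed.

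Slc37a4, Glud1 and Gk did not pass the test between PEC and HN. Slc37a4 had a log2 fold change of 0.48 ± 0.26 (SE, edgeR adjusted p = 0.184), which was 0.07 without PEC 2 and 0.72 without PEC 3, where it passed (edgeR adjusted p = 0.0432, over 23 alternatives 0.0432 to 0.748). Glud1 had -0.16 ± 0.18 (log2, edgeR adjusted p = 0.521). Gk had -0.36 ± 0.46 (log2, edgeR adjusted p = 0.581). Without PEC 1 the value of Gk was 0.0559 ± 0.16, so that the sign rested on this library. Without PEC 2 it was -0.87 ± 0.43. Whether the 5 called genes differ in response from these 3 was not tested.

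PEC against Control gives what remained different from untreated kidneys, and shares its libraries with the other 2 comparisons. All 8 genes were called lower in PEC in edgeR, where 17.3% of all tested genes were lower and 18.7% higher, and the FPKM of the groups did not overlap for any of the 8 (PEC lower for 17.3% of tested genes). The median log2 fold change was -1.42, beside 0.04 over all tested genes, and -1.20 for the proximal tubule markers, of which 13 of 15 were called lower (9 with total counts). Khk had the smallest difference, as it fell by 0.88 ± 0.14 (log2, SE, edgeR adjusted p = 8.12e-04), and with total counts it fell by 0.53, under the fold threshold, so that 7 of the 8 were then called. Gk had the largest in edgeR with TMM, as it fell by 2.39 ± 0.48 (edgeR adjusted p = 0.0045). Without PEC 1 its lead was slight, as Gk fell by 1.98 beside 1.96 for G6pc, and with the trends on GC content and length both removed it was not the largest: Gk fell by 1.88, beside 2.12 for Pck1 and 2.02 for G6pc. G6pc fell by 1.92 ± 0.35 and Pck1 by 1.88 ± 0.33 (edgeR adjusted p = 0.0022 and 0.00173). Both stayed below every Control library in each PEC library.

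**Figure D3:**
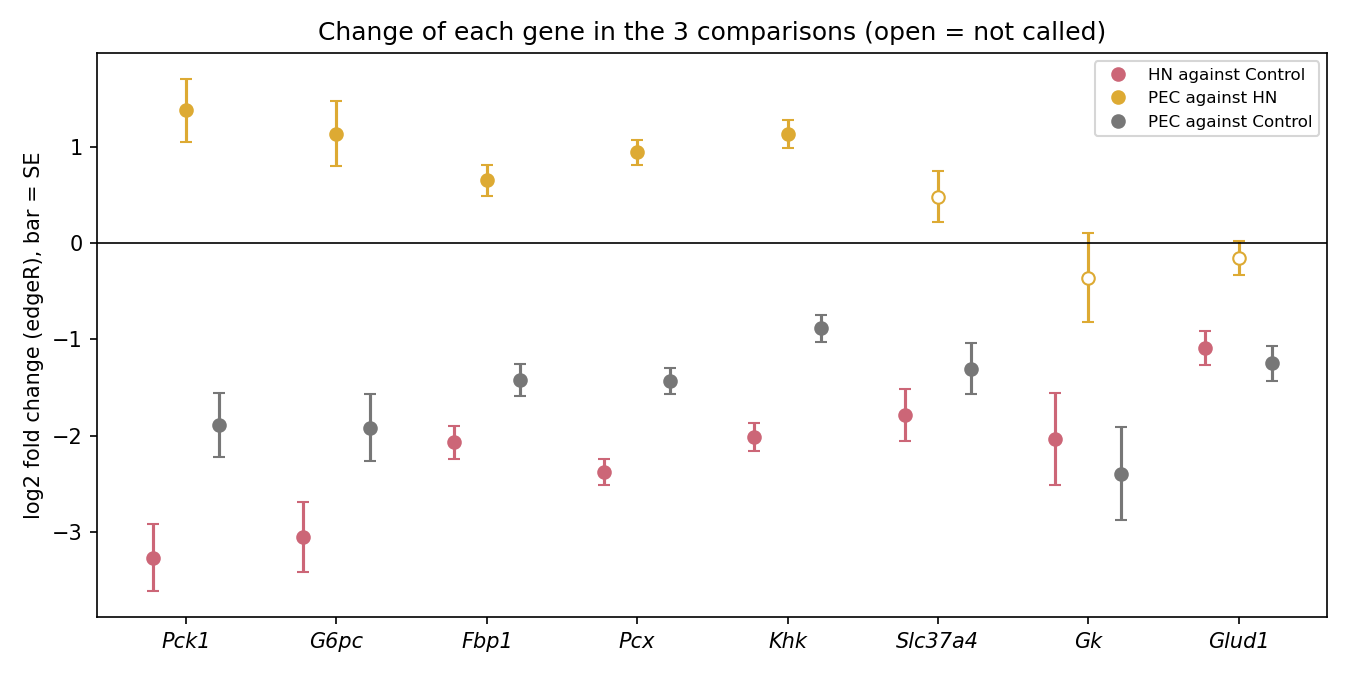
Log2 fold change (edgeR, bars are SE) of each of the 8 genes in the 3 comparisons, filled where called and open where not. All 8 points lie below 0 in HN against Control and in PEC against Control, and the open points are Slc37a4, Gk and Glud1 in PEC against HN.

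Set against the proximal tubule markers of the same library, the 8 genes did not all keep one order of the groups. Per 1000 FPKM of the marker sum, Khk was at 43.6 ± 3.86 FPKM in Control against 49.3 ± 0.817 in HN, with 47.8 ± 1.22 in PEC (SD, n = 3). The HN and PEC libraries overlapped in this ratio, and every HN library was slightly above every Control library. Pck1 was at 233 ± 82.1, 109 ± 32.5 and 125 ± 27.4 per 1000, with HN below Control without overlap and HN and PEC overlapping. Fbp1 was at 119 ± 18, 129 ± 13.8 and 89.7 ± 5.46 per 1000. Relative to the markers Fbp1 was thus lower in every PEC library than in any Control or HN library. Glud1 was at 30.6 ± 10.7, 64.9 ± 6.32 and 26.3 ± 3.72 per 1000, with every HN library above all others. Gk was at 22.4 ± 2.49, 25 ± 1.2 and 8.78 ± 5.26 per 1000, with every PEC library below all others. Slc37a4 was at 14.8 ± 2.29, 19.5 ± 2.69 and 11.8 ± 3.16 per 1000, with every HN library above all others, and Control and PEC overlapping. G6pc was at 65 ± 27.4, 35.3 ± 10.8 and 33.8 ± 4.0 per 1000, where HN overlapped with both other groups and PEC was below Control. Pcx was at 25.9 ± 5.37, 22.6 ± 0.278 and 19.6 ± 3.16 per 1000, and its groups overlapped in all 3 comparisons. These ratios are descriptions with no test, and the markers themselves changed in the same comparisons.

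Of 9 paralogs of these genes 7 passed the filter. Of these 7, 3 were called higher (Pck2, Slc37a1 and Slc37a2) and 1 lower (Gk5) in HN against Control, with a median log2 fold change of -0.04 (0.51 with total counts), beside 17.5% higher and 14.6% lower of all tested genes. Pck2, the mitochondrial form of Pck1, was at 1.38 ± 0.294 FPKM in Control and 3.89 ± 0.33 in HN (SD, n = 3), a log2 difference of 0.96 ± 0.18 (edgeR adjusted p = 0.00201). Pck1 stood at 725 times Pck2 in Control, 39.7 times in HN and 101 times in PEC on the FPKM scale. G6pc3, the widely expressed glucose-6-phosphatase, was at 15.6 ± 0.908, 17.5 ± 2.91 and 19 ± 6.49 FPKM and was not called in any comparison in edgeR with TMM scaling. G6pc2 was at most 0.12 FPKM in any library and Gk2 was listed at 0 in all 9, and neither passed the filter. Between PEC and HN only Slc37a2 was called, 1 of the 7, near the 15.1% of all tested genes called lower. It fell by 0.66 ± 0.19 (log2, SE, edgeR adjusted p = 0.0196). With total counts 2 paralogs were called lower, and with upper-quartile factors 1 was called higher. The call of Slc37a2 was lost in 8 of 23 alternatives, among them those without HN 8, PEC 2 or PEC 3 (-0.52, -0.63 and -0.58).

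Most fructose and sorbitol genes were lower in HN, as was Khk, which is 1 of the 10 on that list. In HN against Control 0 of 10 were called higher and 8 lower (median -1.72), beside 17.5% of all tested genes higher and 14.6% lower, and in PEC against HN 6 of 10 were called higher and 0 lower (median 0.87), beside 13.2% and 15.1%. With limma on log2(FPKM + 1) 4 of the 10 were called higher in PEC (median 0.57), and 3 in edgeR at a fold change of at least 2. Both counts of 0 were also 0 at an unadjusted p under 0.05 with the same fold change in edgeR, and in DESeq2. Sord, which makes fructose from sorbitol, read 586, 599.9 and 625 FPKM in Control against 187, 177 and 169.5 in HN, with 396, 451 and 365 in PEC. It fell by 2.30 ± 0.11 in HN (log2, SE, edgeR adjusted p = 1.35e-06) and was 2.64-fold higher in PEC than in HN (adjusted p = 3.09e-05). Tkfc, which phosphorylates glyceraldehyde, was 2.83-fold lower in HN than in Control and 0.84 ± 0.15 higher on the log2 scale in PEC than in HN (SE, edgeR adjusted p = 5.70e-05 and 0.00235), but 0.58 and not called in the second comparison with limma on log2(FPKM + 1). The fructose transporter Slc2a5 fell by 1.80 ± 0.21 in HN (edgeR adjusted p = 1.07e-04). Akr1b3, aldose reductase, was not called in edgeR with TMM scaling, and its values scattered within groups (21.3, 23.1 and 8.19 FPKM in Control 2, 4 and 5, and 8.67, 8.7 and 26 in PEC 1, 2 and 3).

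Of the 29 genes that bring lactate, glutamine, alanine and glycerol into the pathway, 20 were called lower and 1 higher in HN against Control, with a median log2 fold change of -1.09, beside 14.6% lower and 17.5% higher of all tested genes. With total counts alone the split was 12 lower and 2 higher. The sodium-lactate transporter Slc5a8 read 44.2, 45.4 and 44.7 FPKM in Control against 14.7, 15.1 and 18.3 in HN, with 11.2, 19.3 and 11.8 in PEC, so that HN and PEC overlapped and both were below Control. It fell by 2.02 ± 0.20 in HN (log2, SE, edgeR adjusted p = 4.10e-05). Gpd1, which oxidises the product of Gk, fell by 1.76 ± 0.18 (edgeR adjusted p = 4.88e-05) and was 0.99 ± 0.18 higher in PEC than in HN (adjusted p = 0.00205), with its highest PEC value, 111 FPKM, in the library with adipocyte markers. Slc1a5, a glutamine transporter, was the 1 gene higher in HN (0.69 ± 0.20, log2, edgeR adjusted p = 0.0202), and lost this call without Control 2, Control 5 or HN 8 (0.70, 0.65 and 0.68). Between PEC and HN 9 of 29 were called higher and 1 lower, with a median of 0.39, beside 13.2% of all tested genes higher and 15.1% lower. This split depended on the scaling: it was 6 higher and 3 lower with total counts (median 0.18), and 4 and 4 with limma on log2(FPKM + 1) (median 0.13). Ggt1, a brush border enzyme that releases glutamate, was 2.24-fold higher (edgeR adjusted p = 1.60e-04), and the bicarbonate exporter Slc4a4 fell by 0.74 ± 0.15 (log2, SE, adjusted p = 0.00433). The value of Slc4a4 was -0.28 with the trend on transcript length removed and -0.58 without PEC 3, neither of them called.

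The reversible steps that gluconeogenesis shares with glycolysis were called lower for 5 of 9 genes in HN against Control (Tpi1 and Pgk1 among them) and higher for none (edgeR, 0 also at an unadjusted p under 0.05 with the same fold change and in DESeq2), with a median of -0.76, beside 14.6% lower and 17.5% higher of all tested genes. With total counts alone 1 of the 9 was called lower. Between PEC and HN 4 were called higher (Gapdh among them), with a median of 0.51, and 2 with total counts, beside 13.2% of all tested genes called higher. Gapdh read 4.29, 3.5 and 5.61 FPKM in Control 2, 4 and 5, 3.63, 3.99 and 3.92 in HN 4, 8 and 12, and 49.1, 50.9 and 57.7 in PEC 1, 2 and 3. All PEC libraries were thus about an order of magnitude above the others, and Control and HN were low beside Aldoa (171 ± 11.3 FPKM in Control) and Pgk1 (222 ± 2.32). Gapdh has many processed pseudogenes, and how the authors' counting treated them was not tested, so its level is uncertain. The difference coincides with the PEC group, and the sources used here do not say whether the PEC libraries were prepared or processed apart from the others, so handling and treatment cannot be told apart for Gapdh or for any other comparison with PEC.

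Of 5 glucose transporters, 3 were called lower in HN than in Control, beside 14.6% of all tested genes, and with total counts 2 were lower and 1 higher. Slc5a2, the sodium-glucose cotransporter of the early proximal tubule, fell by 1.91 ± 0.19 in HN against Control (log2, SE, edgeR adjusted p = 5.56e-05), and the basolateral Slc2a2 by 1.33 ± 0.12 (adjusted p = 2.73e-05). Slc5a1 and Slc2a1 were not called in edgeR with TMM scaling, with log2 fold changes of -0.24 and 0.30 in HN against Control. Slc5a2 and Slc2a4, 2 of the 5, were called higher in PEC than in HN, beside 13.2% of all tested genes. However, the call of Slc5a2 (0.61 ± 0.19) was lost in 12 of 23 alternatives, among them those without HN 8 (0.49), HN 12 (0.58), PEC 1 (0.56) or PEC 2 (0.44). The list of 15 genes for the irreversible glycolytic steps also held Ldha, whose reaction is reversible. Of the 15, 4 were called higher (Hk2, Hk3, Hkdc1 and Pfkfb1) and 1 lower (Ldha) in HN, with a median of 0.40, beside 17.5% higher and 14.6% lower among all tested genes. With total counts 8 were called higher, with a median of 0.96, and 7 in both limma fits, and Ldha was not called lower in any of these 3 fits. Hk2 read 0.37, 0.17 and 0.16 FPKM in Control against 4.8, 3.8 and 4.52 in HN, with 1.85, 2.0 and 3.54 in PEC. It was 12.8-fold higher in HN than in Control (edgeR adjusted p = 8.28e-05), from a low level, and every PEC library was below every HN library, although PEC and HN did not pass edgeR's test (adjusted p = 0.194, over 23 alternatives 0.0122 to 0.432, called lower with limma). Pkm, at 38 ± 2.46 FPKM in Control and 75.6 ± 2.83 in HN, had a log2 fold change of 0.46 in edgeR with TMM scaling, under the fold threshold, although its FPKM, scaled to total counts, differed by more. Pfkm and Pfkfb1, 2 of the 15, were called higher in PEC than in HN, near the 13.2% of all tested genes, and the list median was 0.16. Neither was called higher with total counts or with limma, where 1 and 2 genes of the list were called lower (medians -0.05 and -0.14, the second at a pseudocount of 1).

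Among 32 regulators of gluconeogenesis, 13 were called lower and 3 higher in HN against Control, with a median of -0.53, beside 14.6% lower and 17.5% higher of all tested genes. With total counts the median turned to 0.02, with 6 lower and 5 higher. Hnf4a, a nuclear receptor of the proximal tubule and the most abundant of the list, read 188, 178 and 158 FPKM in Control against 82.8, 82.7 and 91.7 in HN, with 107, 119.8 and 111 in PEC, 3 groups without overlap. It fell by 1.56 ± 0.09 in HN and was 0.61 ± 0.09 higher in PEC than in HN (log2, SE, edgeR adjusted p = 2.46e-06 and 6.18e-04). The second call was near the fold threshold and was lost in 7 of 23 alternatives. Among them were both limma fits, no filter on low counts, total counts (0.41), and the fits without HN 8 (0.57) or PEC 2 (0.56). The parathyroid hormone receptor Pth1r fell by 1.55 ± 0.12 in HN (edgeR adjusted p = 9.99e-06). Mlxipl, the carbohydrate response factor that binds E boxes with Mlx, read 15.2, 15.8 and 14.5 FPKM in Control against 5.98, 8.29 and 7.66 in HN, with 26.1, 24.5 and 22 in PEC, so that PEC was above both other groups. Its change was -1.59 ± 0.11 in HN against Control and 1.94 ± 0.11 in PEC against HN (log2, SE, edgeR adjusted p = 6.54e-06 and 1.10e-05).

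Between PEC and HN, 6 of the 32 regulators were called lower in PEC (Ppara, Nr3c1, Cebpb, Klf9, Esrrg and Rora) and 4 higher (Hnf4a and Mlxipl among them), shares near the 15.1% lower and 13.2% higher of all tested genes. The split was 11 lower and 1 higher with total counts, and 3 and 3 with GC and length trends removed. Ppara, the fatty acid receptor, read 13.1, 15.6 and 14.7 FPKM in Control against 11.1, 6.99 and 5.95 in HN, with 1.74, 2.46 and 1.6 in PEC, each group below the one before it without overlap. It fell by 1.84 ± 0.26 in PEC against HN (log2, SE, edgeR adjusted p = 7.27e-04). Nr3c1, the glucocorticoid receptor, was at 11.3 ± 1.06 FPKM in Control against 14 ± 0.442 in HN, with 6.83 ± 0.421 in PEC (SD, n = 3), and fell by 0.82 ± 0.08 in PEC against HN (edgeR adjusted p = 9.32e-05), but by 0.16 with the GC and length trends removed, where it was not called. Ppargc1a, a coactivator of Hnf4a, fell by 0.94 ± 0.10 in HN against Control (edgeR adjusted p = 8.09e-05, -0.38 and not called with total counts) and was not called between PEC and HN (-0.29 ± 0.10, adjusted p = 0.0514). Insr and Cebpa also differed between the PEC libraries: Insr read 0.60, 5.2 and 0.56 and Cebpa 2.26, 11.6 and 2.88 FPKM in PEC 1, 2 and 3. For both, PEC 1 and PEC 3 were low, and neither gene passed the test between PEC and HN.

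**Figure D4:**
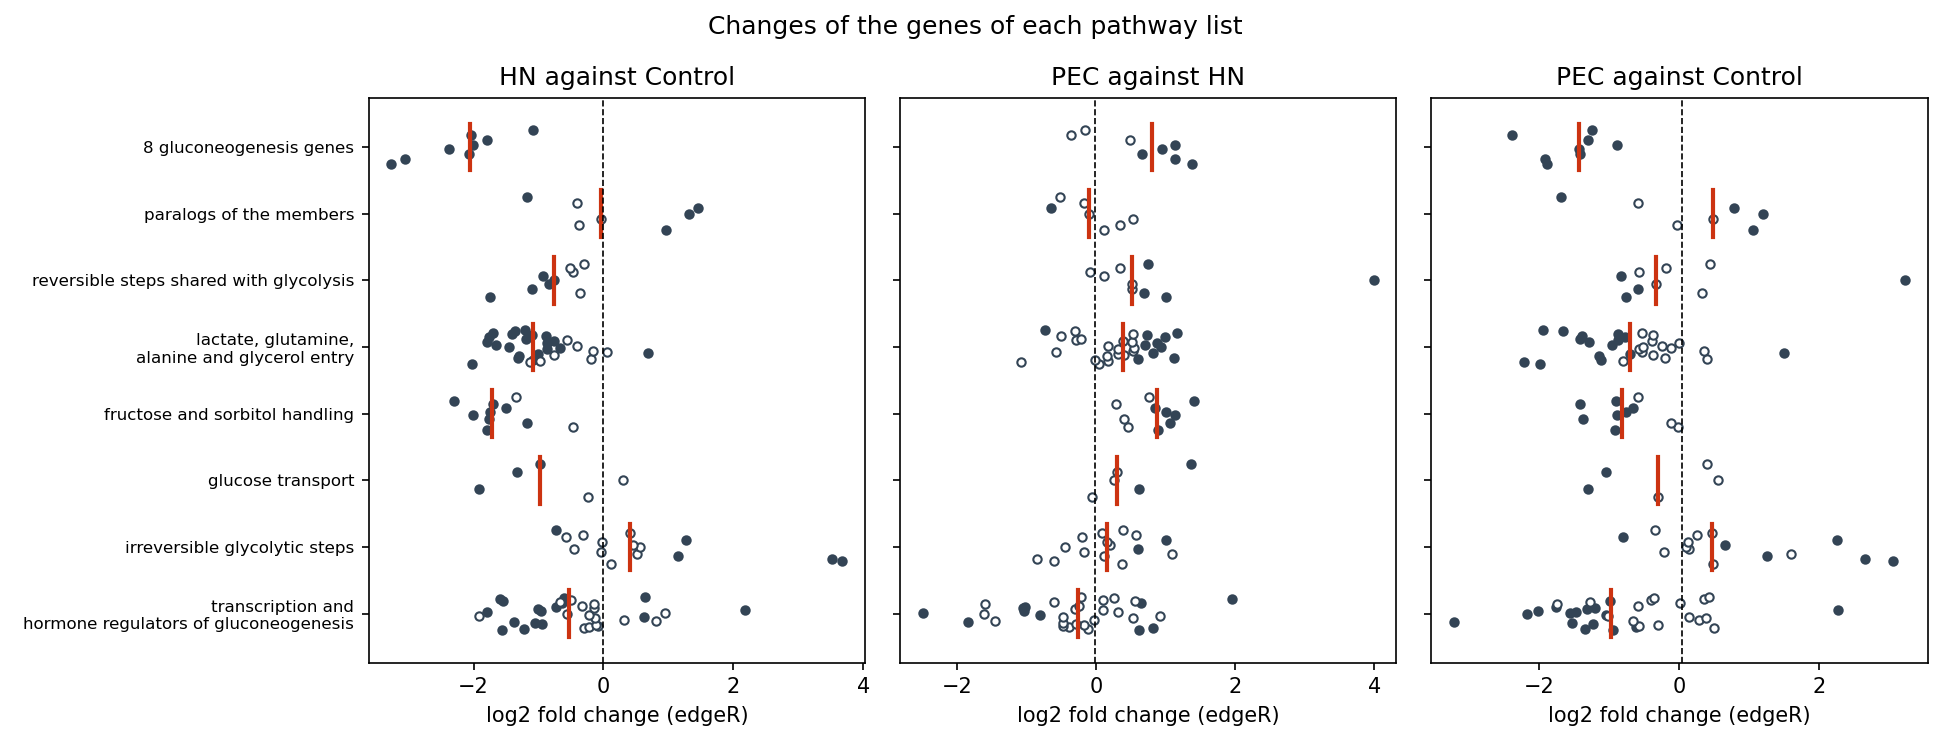
Log2 fold change (edgeR) of every tested gene of the 8 pathway lists in the 3 comparisons, filled where called, with the list median as a red line and the median of all tested genes as a dashed line. The median of the 8 gluconeogenesis genes is -2.05 in HN against Control, 0.80 in PEC against HN and -1.42 in PEC against Control, and the point near 4 in PEC against HN is Gapdh.

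The genes most like each of the 8 over the 9 libraries were ranked by Pearson's r of log2 CPM (TMM scaled). As the 9 libraries form 3 groups, r includes the differences between groups, and no p is given. For Pck1 the 3 highest were Lonp1 (r = 0.994), Gsta3 (r = 0.991), Rdh16 (r = 0.989). For G6pc they were Slc25a34 (r = 0.986), Fcgrt (r = 0.986), Grb7 (r = 0.984), and for Fbp1 Sdha (r = 0.997), Tmbim4 (r = 0.997), Hadh (r = 0.996). Lonp1 is a mitochondrial protease, Sdha a subunit of succinate dehydrogenase and Hadh a fatty acid oxidation enzyme. Pcx was closest to Grpel1 (r = 0.998), Hnf4a (r = 0.998), Aldh9a1 (r = 0.997), the second of these being on the list of regulators. Among the genes closest to Khk were Bphl (r = 0.999) and Kmo (r = 0.997). Slc37a4 was closest to Mrpl44 (r = 0.987), Cpt1a (r = 0.985), Acad11 (r = 0.983), and Glud1 to Irx3 (r = 0.994), Ears2 (r = 0.989), Mmadhc (r = 0.985). Gk, with its low PEC 1 value, was closest to Gssos2 (r = 0.977), Rtca (r = 0.977), Usp4 (r = 0.975).

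The 3 groups differed with base composition and length of transcripts, over all genes with more than 50 counts in every library. In the 3445 of these 13775 genes with the lowest GC content, the median deviation in log2 CPM from the mean of all 9 libraries was -0.22 to -0.19 in PEC, and in the 3444 with the highest it was 0.08 to 0.16. HN libraries had 0.31 to 0.39 and 0.18 to 0.28. Control libraries had -0.10 to -0.07 and -0.46 to -0.27. Control and PEC thus had opposite trends with GC content, and PEC against Control is exposed to them as well as PEC against HN. In the 3444 genes with the shortest transcripts the median deviation was -0.31 to -0.19 in Control, 0.05 to 0.14 in HN and 0.11 to 0.19 in PEC. In the 3443 with the longest it was -0.22 to -0.16, 0.39 to 0.43 and -0.18 to -0.15. Of the 8 genes, Gk had the lowest GC content (40.5%) and Khk the highest (59.4%). With both trends removed, Pck1, Pcx and Khk were still called higher in PEC than in HN, with log2 fold changes of 1.18, 1.04 and 0.95, whereas G6pc (1.00, edgeR adjusted p = 0.0588) and Fbp1 (0.30, adjusted p = 0.201, over 23 alternatives 0.00136 to 0.201) were not. All 8 genes were still called lower in HN and in PEC against Control. Whether these trends arose in preparing the libraries or in the kidneys cannot be told apart, since they coincide with the groups.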

How the data were processed

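Poly(A) RNA of 9 mouse kidney libraries was sequenced, and the authors deposited 1 table with a raw count and an FPKM value per gene and library. The submitters' notes name Bowtie 0.12.2 and the builds mm8 and mm9, but 51991 of the 55144 genes shared with GENCODE M21 have the same start and end in that annotation of GRCm38, as do 7 of the 8 members, so coordinates are given on GRCm38. How the authors counted reads, and whether by strand, is not given in the sources used here. FPKM as deposited by the authors was used for levels. Deposited counts were tested with edgeR 4.0.16 in R 4.3.3 (filterByExpr, TMM, glmQLFit with robust estimation, glmQLFTest) in 1 fit of all 9 libraries with 6 residual degrees of freedom, and p-values were adjusted by Benjamini-Hochberg over the 21392 genes tested. The call rule was a fold change of at least 1.5 and an adjusted p of at most 0.05. Alternatives used limma 3.58.1, DESeq2 1.42.0, other scalings, filters and thresholds, length trends, and each library left out. The GC and length correction was chosen after seeing the data. The fits were tested on simulated data. Named genes were the 8 members, genes of the pathway lists, the most abundant gene of each marker list and its called genes with the largest changes, and for each member the 3 genes with the highest r of log2 CPM (prior count 2), and some of these are not reported here. Lrfn4, Cps1 and single libraries were picked out after their values were seen. Members and lists were chosen with earlier results of these data known.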

Additional observations from a re-analysis of the deposited data

How the results depend on the processing

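In HN against Control and in PEC against Control, the 8 genes had the same direction under all 23 alternatives. The calls lost were Glud1 in HN against Control (both limma fits and total counts) and Khk in PEC against Control (total counts, and a fold change of at least 2). In PEC against HN, the count of called members was 5, and 3 with total counts, 3 with a fold change of at least 2, 3 with GC and length trends removed (chosen after seeing the data), and 3 to 6 with 1 library left out. With total counts G6pc had an edgeR adjusted p of 0.0543 and Fbp1 was under the fold threshold. Over its alternatives the adjusted p of G6pc ran from 0.00161 to 0.0953. Gk in PEC against HN, which was not called, turned from -0.36 to 0.18 with GC and length trends removed and ran from -0.87 without PEC 2 to 0.0559 without PEC 1. Ppargc1a, also not called there (-0.29), turned to 0.39 with GC and length trends removed, and its values with 1 library left out ran from -0.36 to -0.19.

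The count of all genes called was 6066 in PEC against HN and 3530 with a fold change of at least 2. In PEC against Control it was 7702, 5066 with limma on log2(FPKM + 1) and 5026 with a fold change of at least 2. The scaling moved the split. In HN against Control 54.5% of called genes were higher, but 85.7% with total counts, and 81.9% and 83.2% with limma at pseudocounts of 1 and 0.1. In PEC against HN the share was 46.7%, 29.6% with total counts, 28.6% and 28.4% with limma, and 58.1% with upper-quartile factors. In PEC against Control it was 52%, 76.6%, 70.7%, 70.9% and 63.5% in the same order. Apart from fewer genes or libraries, the cause was not tested. No paired analysis was run, because mice were assigned to the groups at random and the labels give no pairing of libraries between groups.

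With 3 libraries a group, a member that was not called is not shown to be unchanged. The lowest count of the 8 genes was 4201. The part of the adipocyte transcripts of PEC 3 was not tested. The GC and length trends coincide with the groups and cannot be told apart from them. The table gives RNA and no glucose output or enzyme activity.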
